A study of Homo sapiens with 8 samples.

Results

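The cytosolic ribosomal protein genes were examined for FLI1 binding at their promoters. They were taken as the protein-coding genes of GENCODE release 44 on GRCh37 whose symbol is RPL or RPS followed by a digit, without the RPS6K kinases and RPS19BP, together with RPSA, RPLP0, RPLP1 and RPLP2. The rule gave 90 of 20149 protein-coding genes, 55 of the large and 35 of the small ribosomal subunit. Of these, 77 are the genes of the ribosomal proteins themselves, 10 are paralogs such as RPL7L1, and 3 are readthrough genes (RPL17-C18orf32, RPL36A-HNRNPH2 and RPS10-NUDT3) that share a start region with a member. For each gene and each library, the best peak was the one with the highest -log10 q whose centre lay within 3 kb of any annotated transcription start site (TSS), and the gene was called bound when that value was at least 3, a q-value of 0.001 or lower.

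The data were FLI1 ChIP-Seq libraries of OCI-Ly1 and VAL, established human lymphoma cell lines of the germinal center B-cell (GCB) type of diffuse large B-cell lymphoma (DLBCL). FLI1 was precipitated with a rabbit polyclonal antibody from 2 replicates per cell line, the labels name no treatment or genetic change for any of the 4 FLI1 libraries, and 4 samples of input DNA were not analysed here. The list of OCI-Ly1 replicate 1 held 37 intervals, of which 33 were longer than 1 Mb, and was not used, so that OCI-Ly1 rests on its replicate 2, called OCI-Ly1 from here on, and VAL on replicates 1 and 2, called VAL-1 and VAL-2. The lists held 1107379 peaks with 5354 passing in OCI-Ly1, 237178 with 973 passing in VAL-1, and 986629 with 6474 passing in VAL-2. Read totals were not used, and the depth is known only through the reads behind each peak, which were worked out from its fold and p-value. A passing peak had at least 6 reads in OCI-Ly1 and VAL-2 and at least 8 in VAL-1. Nothing says whether the replicates came from separate cultures.

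Ribosomal proteins assemble with ribosomal RNA into the small subunit, which reads the mRNA, and the large subunit, which joins the amino acids. Their genes are scattered over the chromosomes, are transcribed at high levels in growing cells such as germinal center B cells, and their mRNAs begin with a pyrimidine-rich stretch, the 5′ TOP sequence, through which mTOR signaling controls their translation. FLI1 is a transcription factor of the ETS family, whose members bind DNA with a GGAA core and often sit close to the start of housekeeping genes.

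The sites at which the strongest peaks lay can be read directly in the genome. For the members bound in all libraries whose peaks held the ETS motif CCGGAAA or CCGGAAG within 50 bp of the summit, the 30 bases around the motif nearest to the summit are given on the strand that reads the motif, from GRCh37, with the motif in capitals. RPL27A has 2 lines because its best peak lay at different starts in the 2 cell lines.
RPS19, chr19:42363891-42363920, minus strand: ctgttccctggCCGGAAGtgggagtagtaa
RPS27, chr1:153963228-153963257, minus strand: ggtcgtcaccgCCGGAAAggagcgaaagcg
RPS26, chr12:56435618-56435647, plus strand: cgtcgcgtataCCGGAAAactgcatcgtcc
RPL7L1, chr6:42847327-42847356, plus strand: gcacagccgcgCCGGAAGtgcggcgccgta
RPL27A, OCI-Ly1, chr11:8704263-8704292, plus strand: ggcctctgtgaCCGGAAGtgaggcgttttg
RPL27A, VAL, chr11:8710530-8710559, minus strand: agtcatcgtctCCGGAAGtagaagctactc
RPS19, RPL7L1 and both RPL27A sites hold the form CCGGAAG followed by T, and RPS27 and RPS26 hold CCGGAAA. The same bases were nearest to the summit in all 3 libraries for RPS19, RPS27 and RPL7L1. The motif centre lay 0 bp from the RPS19 summit in VAL-1, 2 bp in VAL-2 and 22 bp in OCI-Ly1.

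A second set shows members bound in both cell lines but not in VAL-1, and members strong in only 1 cell line (RPL32 in VAL, RPS6 far stronger in OCI-Ly1).
RPL12, chr9:130213675-130213704, plus strand: aagccgagaggCCGGAAAtcgcgcggacaa
RPL29, chr3:52029942-52029971, plus strand: ggtcaacaacgCCGGAAAgtactactggaa
RPS12, chr6:133135577-133135606, plus strand: accgcctcaatCCGGAAAcagaaactcccc
RPS16, chr19:39926569-39926598, plus strand: cggcgccgcaaCCGGAAAaggaaagctagg
RPL3, chr22:39715667-39715696, minus strand: gcgctcgcacgCCGGAAGgggcggggccag
RPL19, chr17:37356275-37356304, minus strand: gttatctgtaaCCGGAAGtcagctggattg
RPS14, VAL, chr5:149829331-149829360, plus strand: acttccgtgtcCCGGAAGtatacctctgag
RPL32, chr3:12883097-12883126, minus strand: aagagccggagCCGGAAGtgcttgcctttt
RPS6, chr9:19380320-19380349, minus strand: attaatctcgcCCGGAAGtaccgcccaccc
RPL12, RPL29, RPS12 and RPS16 hold CCGGAAA, and the others CCGGAAG. Over all members with the motif at the summit, CCGGAAA was the form nearest to it at 9 of 23 sites in OCI-Ly1 (39.1%, Wilson 95% interval 22.2 to 59.2) and at 7 of 20 in VAL-2 (35.0%, 18.1 to 56.7). Among the sites of other coding genes its share was 22.9% of 1527 and 22.1% of 1469. The members' interval included the other genes' value in both libraries.

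FLI1 peaks lay at the promoters of about 1 in 2 ribosomal protein genes in the libraries with the most peaks. In OCI-Ly1, 47 of 90 were bound (52.2%, 42 to 62.2), where 19.0% of all protein-coding genes were. In VAL-2, 50 were bound (55.6%, 45.3 to 65.4) where 20.8% of all coding genes were. In VAL-1, the library with the fewest peaks, 8 were bound (8.89%, 4.57 to 16.6) where 3.14% were. Among the 20059 other coding genes the shares were 18.8%, 3.12% and 20.7%, so the members' share was 2.77 times theirs in OCI-Ly1, 2.85 times in VAL-1 and 2.68 times in VAL-2. These intervals cover counting error only, the members are not replicates of a condition, and no test was made.

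**Figure D1:**
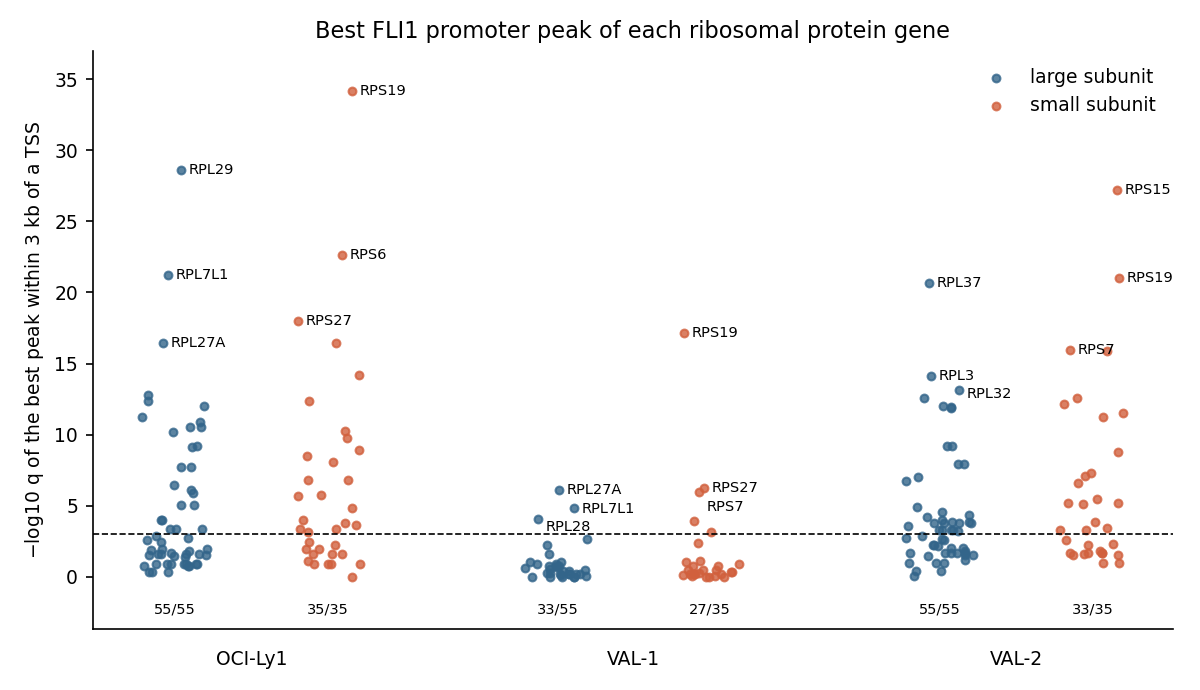
The -log10 q of the best peak within 3 kb of a TSS is plotted for each ribosomal protein gene in each library, with the threshold of 3 as a dashed line and the number of genes that have a listed peak under each column. RPS19 is the highest member in OCI-Ly1 (34.2) and VAL-1 (17.1), and RPS15 in VAL-2 (27.2).

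In total, 62 members (68.9%) were bound in at least 1 library, where 27.4% of all coding genes were, and 35 (38.9%) in both cell lines, where 12.6% were. All 8 members of VAL-1 were bound in the other libraries as well. Of the 625 other coding genes bound in VAL-1, 89.6% were bound in OCI-Ly1 and 93.3% in VAL-2, so such overlap was common to both. As a share of all members, the 8 bound in all 3 libraries (8.89%) compare with 2.73% of all coding genes. Another 12 were bound in OCI-Ly1 only, 15 in VAL only and 28 in none. The 35 shared members were 74.5% of the 47 of OCI-Ly1 and 70.0% of the 50 of VAL-2. For other coding genes the shared 2488 were 65.9% and 59.9%.

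In OCI-Ly1 and VAL-2 the members' median best peak was higher than that of other genes. This follows from the shares bound, which rest on the same -log10 q values, and is not a further result. The median -log10 q of the members' best peaks was 3.36 in OCI-Ly1 and 3.27 in VAL-2, against 1.22 and 1.61 for other coding genes. In VAL-1 both medians were 0.183 with genes without a peak ranked lowest, and 30 members had no listed peak. The 60 with one stood at a median percentile of 73.6 among all coding genes, again with those without a peak ranked lowest. Members without a peak are left out of this value while other genes without one stay in the ranking, which raises it. It is thus not a result beside the equal medians. The same percentile was 81.8 in OCI-Ly1 and 81.2 in VAL-2, where 90 and 88 members had a listed peak. The top 10% held 30 members in the former and 25 in the latter, and the top 1% held 2 and 1. Once only bound peaks are compared, the members' median -log10 q of 8.10, 5.40 and 6.03 in OCI-Ly1, VAL-1 and VAL-2 stood beside 6.19, 5.58 and 5.72 for other coding genes.

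The small subunit had the larger share bound in each library at this threshold, but the intervals of the subunits overlapped, and in VAL-2 the order turned with a -log10 q of at least 2 (38 large subunit genes, 69.1%, and 23 small subunit genes, 65.7%). In OCI-Ly1, 22 of 35 small subunit genes were bound (62.9%, 46.3 to 76.8) and 25 of 55 large subunit genes (45.5%, 33.0 to 58.5). In VAL-2 the counts were 20 of 35 (57.1%, 40.9 to 72.0) and 30 of 55 (54.5%, 41.5 to 67.0), and in VAL-1 they were 5 (14.3%) and 3 (5.45%). In both cell lines, 16 small subunit genes (45.7%, 30.5 to 61.8) and 19 large subunit genes (34.5%, 23.4 to 47.7) were bound. Without the paralogs and readthrough genes, 45 of 77 ribosomal protein genes were bound in OCI-Ly1 (58.4%, 47.3 to 68.8) and 47 in VAL-2 (61.0%, 49.9 to 71.2).

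**Figure D2:**
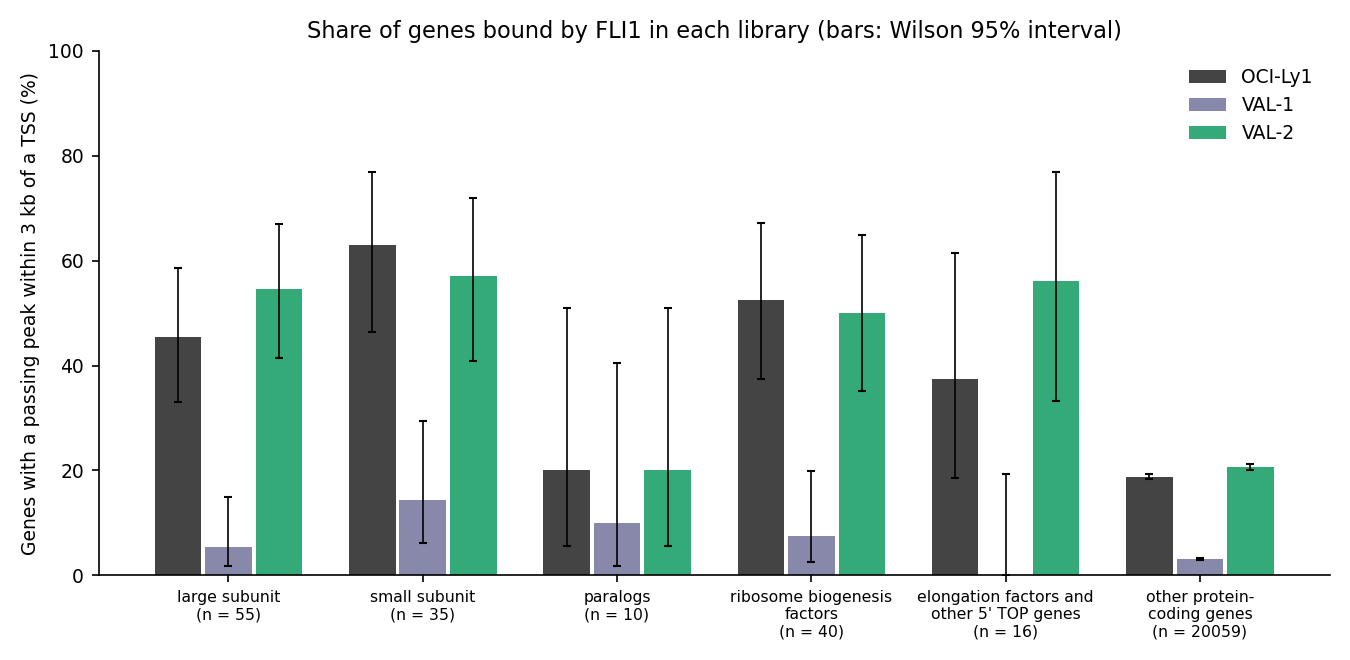
Bars give the share of genes bound (%) in each library, with Wilson 95% intervals, for the large and small subunit, the paralogs, 2 other lists of translation genes and other protein-coding genes. Both subunits stand above the other coding genes (18.8% and 20.7%) in OCI-Ly1 and VAL-2, and the intervals of the subunits overlap.

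Among the small subunit genes bound in all 3 libraries, RPS19 had the strongest smallest value. RPS19 encodes a protein needed for maturation of the small subunit and is the gene most often mutated in Diamond-Blackfan anaemia, an inherited failure of red cell production. Its peak had a -log10 q of 34.2 with 27 reads in OCI-Ly1, 17.1 with 27 reads in VAL-1 and 21.0 with 19 reads in VAL-2. The same number of reads gave a lower value in VAL-1, where the local background was 1.84 reads and not 0.442 as in OCI-Ly1. RPS19 (ENSG00000105372) is annotated at chr19:42364325-42376993 on the plus strand, and its summits lay at -441, -419 and -421 bp from the nearest annotated TSS, in the part of the window where few other members had theirs.

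RPS27, whose protein has a zinc finger and binds the small subunit's surface, had a -log10 q of 18 in OCI-Ly1, 6.22 in VAL-1 and 15.9 in VAL-2. RPS7, also a Diamond-Blackfan gene, had 12.4, 5.96 and 15.9 in the same order. RPS15, a protein near the decoding site that is mutated in chronic lymphocytic leukemia, had 10.3, 3.90 and 27.2. RPS26, which lies at the mRNA exit channel, had 6.84, 3.14 and 11.2. These 4 genes were thus higher in VAL-2 than in VAL-1 each time, and RPS7, RPS15 and RPS26 were highest in VAL-2. RPS7 and RPS15 had no CCGGAAA or CCGGAAG within 50 bp of the summit in any library, while RPS26 had it in OCI-Ly1 and VAL-1 but not in VAL-2, where the summit lay 104 bp from that of VAL-1.

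Of the large subunit, RPL7L1, RPL27A and RPL28 were bound in all 3 libraries. RPL7L1, a paralog of RPL7, had a -log10 q of 21.2 in OCI-Ly1, 4.84 in VAL-1 and 9.19 in VAL-2, with summits at 7, -9 and -1 bp from its TSS. RPL28 was close to the threshold each time, with 3.37, 4.09 and 3.31, and had no motif at the summit. RPL27A had 16.5, 6.07 and 12.6, but the OCI-Ly1 peak was not the VAL peak. The summit of OCI-Ly1 lay 4 bp from a TSS of TRIM66, a neighbouring coding gene, and 90 bp from an RPL27A start, and the VAL-2 summit lay 6306 bp away from it near another annotated RPL27A start.

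Of the 35 members bound in both cell lines, the 10 with the highest smallest value over the libraries in which they passed ran from RPS19 to RPLP2. Members that passed in VAL-1 were ranked with their value there included, as for RPS27 with 6.22. Beside RPS19, RPS20 had 14.2 in OCI-Ly1 and 12.6 in VAL-2. RPL12, at the base of the stalk that receives elongation factors, had 12.8 and 11.9, RPL6 had 10.5 and 11.9, and RPL3, which reaches toward the peptidyl transferase center, had 10.2 and 14.1. RPL4 was nearly equal in the cell lines, with 9.20 and 9.19. RPL37 was higher in VAL-2, with 9.15 and 20.6. RPS14, the gene whose loss underlies the anaemia of the 5q- syndrome, had 8.49 and 12.2, RPS16 had 8.10 and 11.5, and RPLP2 had 10.9 and 7.90. None of these 9 passed in VAL-1, where the values that were listed reached at most 2.40, that of RPS16. The smallest passing value of the other 25 shared members ran from 3.14 in RPS26 to 7.73 in RPL19.

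**Figure D3:**
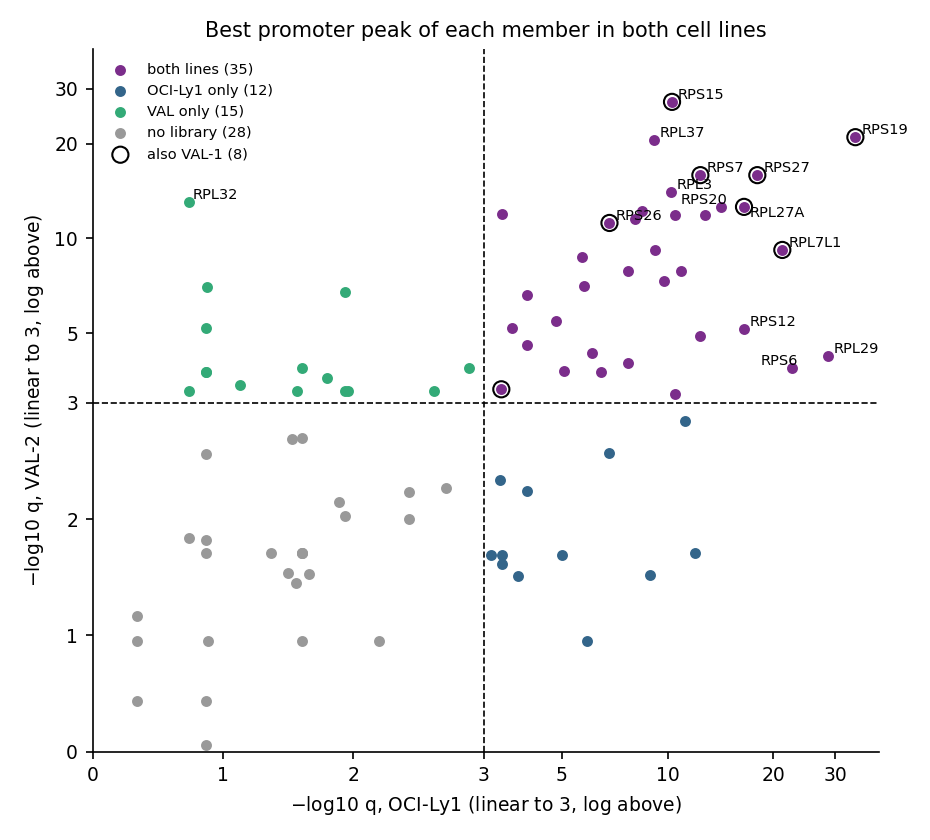
Each point is a member placed by the -log10 q of its best peak in OCI-Ly1 (x axis) and VAL-2 (y axis), with dashed lines at 3, axes linear up to 3 and logarithmic above. The 2 members with no listed peak in VAL-2 are not drawn, black rings mark the 8 members also bound in VAL-1, and RPL32 stands out among the 15 bound in VAL only.

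Some members differed widely between the cell lines. RPL29 had a -log10 q of 28.6 with 22 reads in OCI-Ly1 and 4.23 with 7 reads in VAL-2, and RPS6, the substrate of the S6 kinases, had 22.6 with 20 reads and 3.87 with 6 reads. Both were bound in both lines all the same. RPL36 had the highest value of the members bound in OCI-Ly1 only, 12 against 1.71, followed by RPL26 with 11.2 against 2.84. RPL32 had the highest of those bound in VAL only, 13.1 against 0.740 in OCI-Ly1, and 1.60 in VAL-1. With 1 usable OCI-Ly1 library, a difference between the cell lines and a difference between libraries cannot be told apart, and inside VAL the count went from 8 to 50 between replicates.

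Several calls rest on values next to the threshold. In OCI-Ly1, RPL28 (3.37), RPS27L (3.35) and RPS28 (3.15) were just inside, and RPL38 (2.89), RPL23A (2.71) and RPL10 (2.62) just outside. In VAL-1, RPL28 (4.09), RPS15 (3.90) and RPS26 (3.14) were inside, and RPL8 (2.68), RPS16 (2.40) and RPL37 (2.26) outside. In VAL-2, RPL37A (3.20) was just inside, followed by RPL10, RPL31, RPL7A and RPS2, all tied at 3.27, while RPL26 (2.84), RPL22L1 (2.70) and RPL22 (2.69) were outside. RPL38 and RPL10 thus passed in VAL alone, and RPL26 in OCI-Ly1 alone, with failing values of 2.89, 2.62 and 2.84.

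RPL5 and RPL11 form a particle with 5S ribosomal RNA that binds MDM2 and stabilizes p53 when ribosome assembly is disturbed. RPL5 was bound in OCI-Ly1 (5.91) and not in VAL-2 (0.952), and it had no listed peak in VAL-1. RPL11 was bound in OCI-Ly1 (5.08) and VAL-2 (3.79), with 0.757 in VAL-1, and its summits in these bound libraries lay 165 bp apart. The acidic proteins of the stalk recruit elongation factors to the large subunit. RPLP1 was bound with 3.99 in OCI-Ly1 and 4.57 in VAL-2, RPLP2 with 10.9 and 7.90, and RPLP0 in VAL-2 only (3.60, and 1.80 in OCI-Ly1).

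Of the ribosomal proteins mutated in blood cancers, RPL5, RPL11 and RPS15 were bound in OCI-Ly1 with the values above. RPL10, mutated in T-cell leukemia, passed in VAL-2 alone (3.27, and 2.62 in OCI-Ly1), and RPL22, deleted in several cancers, passed nowhere (1.53 and 2.69). Of the 20 members known from Diamond-Blackfan anaemia, 15 were bound in OCI-Ly1 (75%, 53.1 to 88.8), 4 in VAL-1 (20%, 8.07 to 41.6) and 10 in VAL-2 (50%, 29.9 to 70.1). Beside RPS19, RPS27, RPS7 and RPS26, they include RPL35, with 12.4 in OCI-Ly1 and 4.90 in VAL-2, and RPL15, with 7.73 and 4.01. RPS24, RPL35A, RPS10 and RPS29 were bound in no library. The share of all members lay inside the interval of this list in VAL-1 and VAL-2 and just under it in OCI-Ly1 (52.2%).

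Among the 10 paralogs, some of which are known from particular tissues, 3 were bound anywhere. Their share bound in at least 1 library (30%, 10.8 to 60.3) was close to the 27.4% of all coding genes. Beside RPL7L1, RPS27L, a target of p53, passed in OCI-Ly1 (3.35) and RPL36AL in VAL-2 (6.73). The RPL36AL summit lay at -71 bp from its own TSS and 102 bp from a TSS of MGAT2. RPL3L, a muscle form, had 0.740 and 1.84 in OCI-Ly1 and VAL-2, RPL10L, a testis form, 0.873 and 0.0620, RPL22L1 1.61 and 2.70, RPL26L1 1.94 and 2.03, and RPL39L 1.61 and 1.71. RPS4Y1 and RPS4Y2, on the Y chromosome, were not bound in OCI-Ly1 (0.873 and 0.0188) and had no listed peak at all in VAL-1 or VAL-2. Of the genes outside the naming rule that also encode ribosomal proteins, RACK1, a scaffold on the small subunit, was bound in OCI-Ly1 (8.37) and VAL-2 (3.79). FAU, a ubiquitin-like fusion with a small subunit protein, was not (1.56 and 1.52).

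The 28 members bound in no library included RPL7, RPL9, RPL13, RPL13A, RPL14, RPL17, RPL22, RPL23, RPL23A, RPL24, RPL34, RPL35A and RPL39 of the large subunit, RPS9, RPS10, RPS23, RPS24 and RPS29 of the small subunit, the 7 paralogs other than RPL7L1, RPS27L and RPL36AL, and the readthrough genes RPL17-C18orf32 and RPS10-NUDT3. None had a peak past the threshold, and the part of depth and local background in this was not tested. The bound readthrough gene, RPL36A-HNRNPH2, carried the same VAL-2 peak as RPL36A.

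Genes that work on or with the ribosome were bound at shares whose intervals overlapped those of the members. Of 40 ribosome biogenesis factors, 21 were bound in OCI-Ly1 (52.5%, 37.5 to 67.1), 3 in VAL-1 and 20 in VAL-2 (50%, 35.2 to 64.8), and 18 in both cell lines. Their highest values were those of NIP7 (23.6 in OCI-Ly1 and 17.6 in VAL-2) and RRS1 (22.8 and 25), both needed for making the large subunit. Of 16 elongation factors and other 5′ TOP genes, 6 were bound in OCI-Ly1 (37.5%, 18.5 to 61.4), 0 in VAL-1 and 9 in VAL-2 (56.2%, 33.2 to 76.9), led by TPT1 (9.86 and 15.9), with EIF4A2 next in OCI-Ly1 (8.70) and PABPC1 next in VAL-2 (6.37). Of 10 B-cell identity genes, 3 were bound in OCI-Ly1, with MME (14) and CD79A (5.39) highest, 0 in VAL-1 and 4 in VAL-2, CD79B (6.15) among them. Of 10 genes of other cell types, 0 were bound in any library. Beside the share of all coding genes (19.0%, 3.14% and 20.8% in OCI-Ly1, VAL-1 and VAL-2), the intervals of the B-cell genes, 10.8 to 60.3 in OCI-Ly1, 0 to 27.8 in VAL-1 and 16.8 to 68.7 in VAL-2, include the background, and lists of 10 genes are too short to read more from. These lists describe binding and not expression, so they do not check the identity of the cells.

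The summits sat just upstream of the start. The median position from the nearest TSS of the member itself was -37 bp in OCI-Ly1, -36.5 bp in VAL-1 and -19 bp in VAL-2, with upstream negative. Summits within 100 bp of a TSS made up 35 of 47 (74.5%), 6 of 8 (75%) and 37 of 50 (74.0%), and among bound other coding genes 57.9%, 63.7% and 53.1%. A gene with more annotated starts has one nearer to a summit more easily. The members had a median of 8 TSS against 5, and the part of this in the shares was not tested. Upstream of the TSS lay 41, 7 and 32 of the members' summits. Among bound other coding genes, 2495 of 3777, 451 of 625 and 2611 of 4151 lay upstream, with medians of -24, -30 and -24 bp. In OCI-Ly1, 19 summits lay in an exon, 6 in an intron and 22 outside coding genes, and in VAL-2 the numbers were 24, 5 and 21.

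**Figure D4:**
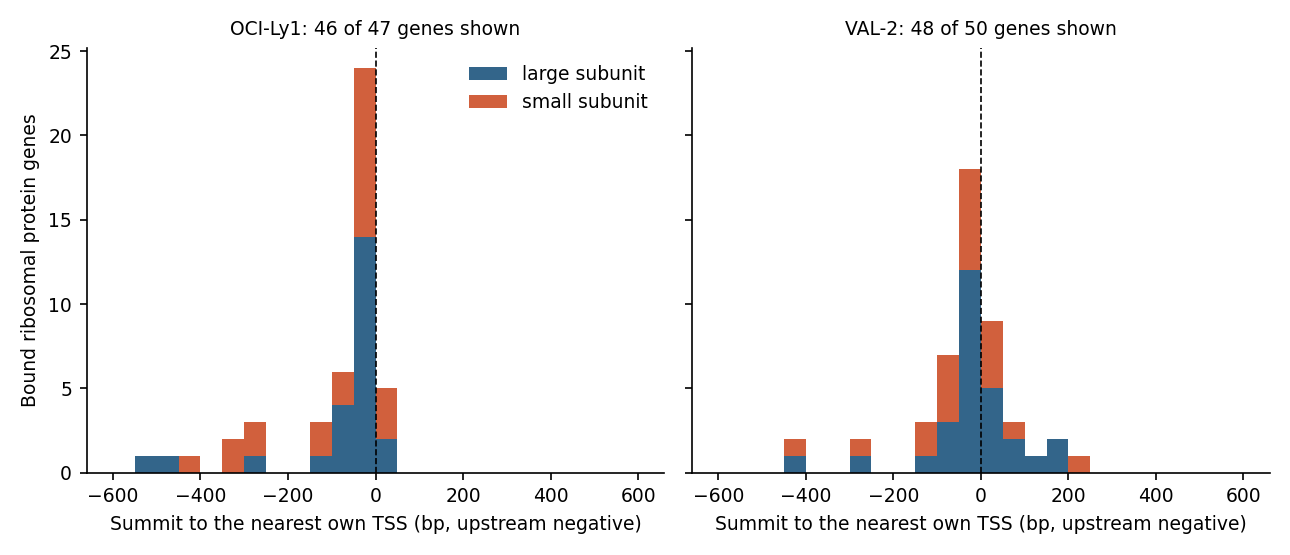
Histograms in steps of 50 bp give the position of the summit from the nearest TSS of the bound member in OCI-Ly1 and VAL-2, upstream negative, with the subunits stacked. The panels show 46 of 47 and 48 of 50 bound members, and the tallest column in each is the 50 bp upstream of the TSS.

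The same position was found in both cell lines for most members. Over the 35 members bound in OCI-Ly1 and VAL-2, the summits lay a median of 28 bp apart, 24 within 50 bp (68.6%) and 30 within 100 bp (85.7%). For 2488 other coding genes the median was 31 bp, with 67.2% within 50 bp and 80.6% within 100 bp. RPL12 was 3 bp apart. Beside RPL27A, the members more than 100 bp apart included RPL21 (312 bp), RPL11 (165 bp) and RPS25 (110 bp).

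In a few members the peak lay nearer to the start of another coding gene, and the gene it belongs to cannot be told from the peak. In OCI-Ly1 there were 6 of 47 (12.8%). Beside RPL27A these were RPL36 (1 bp from a TSS of MICOS13), RPL41 (3 bp from ESYT1 and 1472 bp from its own), RPLP2 (13 bp from PIDD1), RPS18 (37 bp from VPS52) and RPL26 (10 bp from ENSG00000263809, a coding gene without a name). In VAL-2 there were 5 of 50 (10%), which were RPL41 (22 bp from ESYT1), RPLP0 (61 bp from GCN1 and 2721 bp from its own), RPLP2 (21 bp from PIDD1), RPS27A (14 bp from CLHC1) and RPL36A-HNRNPH2 (24 bp from RPL36A). For other coding genes the share was 20.4% and 19.9%. Not counting these members as bound left 41 in OCI-Ly1, 8 in VAL-1 and 45 in VAL-2. Others lay between divergent starts while still nearer to the member, as for RPL12 with LRSAM1 at 81 bp and RPL6 with PTPN11 at 44 bp in OCI-Ly1.

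The ETS motif stood at the summits of the members about as often as at those of other genes. CCGGAAA or CCGGAAG, on either strand, was found within 50 bp of 23 of 47 summits in OCI-Ly1 (48.9%), 5 of 8 in VAL-1 (62.5%) and 20 of 49 different summits in VAL-2 (40.8%). In windows of the same size 250 bp to each side, it was found in 6 of 94 (6.38%), 0 of 16 and 8 of 98 (8.16%). At the summits of other coding genes the shares were 50.5%, 61.7% and 43.9%. Since CCGG reads the same on both strands, matches on the 2 strands can overlap and were counted once per window. With the shorter CGGAA, chosen after the data were seen, the shares of the members were 70.2%, 100% and 75.5%, and those of the control windows 25.5%, 12.5% and 22.4%.

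In the promoter itself, from 250 bases before to 50 after the annotated start of the gene, the ETS motif was present in 34 of 90 members (37.8%, 28.5 to 48.1) and in 15.3% of all 20149 coding promoters. The 34 promoters held 45 matches, 7 of them had 2 or more, and the median match lay at -45 bases. Matches that overlapped on opposite strands were each counted, and the same site was counted for both RPS10 and RPS10-NUDT3. AANATGGC, a YY1 motif, was present in 12.2% of the members and 6.75% of all promoters. GGGCGG, an SP1 motif, was present in 50% and 52.2%, and TATAAA, the TATA box, in 7.78% and 10.9%. All were searched on both strands. The motif is a description of letters and not of bound sites. RPL29 and RPS14 had 3 ETS sites each. RPL18 and RPS18 had 3 matches each, of which 2 overlapped on opposite strands (centres at -237 and -234 in RPL18, and at -74 and -71 in RPS18). Of these genes, RPL18 and RPS18 were bound in OCI-Ly1 alone.

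Members with and without the motif in the promoter were bound at shares closer to each other than those of other genes. The motif was sought at the start of the gene only, while a peak near any annotated start counted as binding. RPS19 and RPS26, which had the motif near a summit, were thus among the members without it. In OCI-Ly1, 19 of 34 members with the motif (55.9%, 39.5 to 71.1) and 28 of 56 without it (50%, 37.3 to 62.7) were bound, while 47.6% of 3054 other coding genes with it and 13.7% of 17005 without it were. In VAL-2 the shares were 61.8% (45.0 to 76.1) and 51.8% (39.0 to 64.3) for the members and 47.0% and 16% for other coding genes. The intervals of the members with and without the motif overlapped in both libraries, and the interval of the members without it lay above the value of other genes without it. With the starts of all annotated transcripts searched, 58.2% of 55 members with the motif and 42.9% of 35 without it were bound in OCI-Ly1. In VAL-2 the shares were 58.2% and 51.4%. Those of other coding genes were 41.0% and 9.89% in OCI-Ly1, and 41.8% and 12.2% in VAL-2. In VAL-1, with the gene start searched, the members' shares were 8.82% and 8.93%, and those of other coding genes 10.2% and 1.83%. The difference between members and other genes in this respect was not tested. Counting only peaks without the motif within 50 bp of the summit, 26.7% of the members and 9% of other coding genes were bound in OCI-Ly1, and 33.3% and 11.2% in VAL-2. With the motif at the summit, the shares were 25.6% and 9.83%, and 22.2% and 9.49%.

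**Figure D5:**
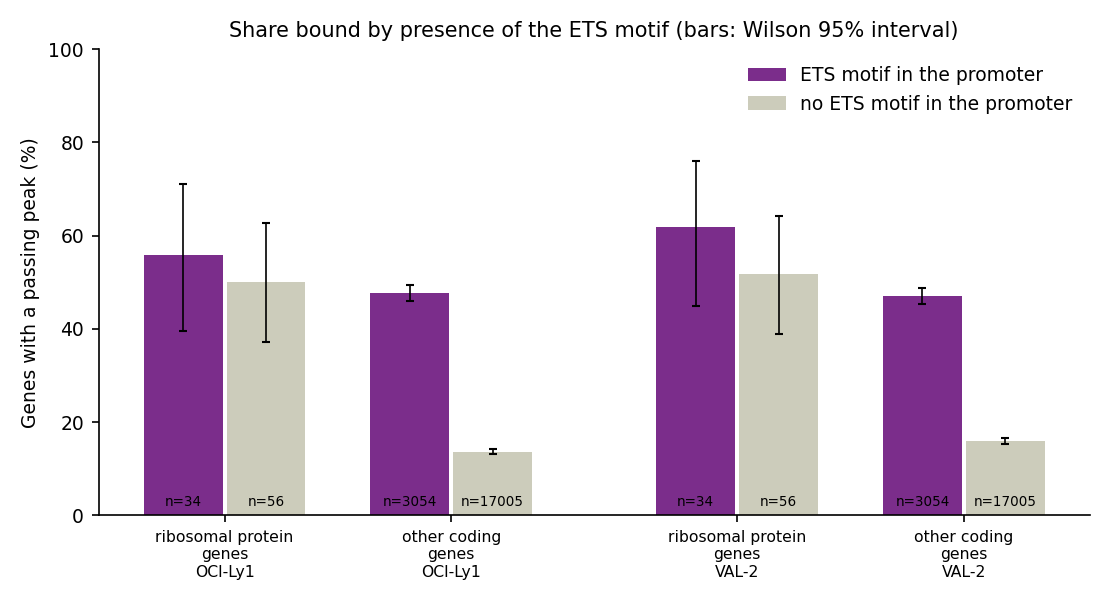
Bars give the share of genes with a passing peak (%) in OCI-Ly1 and VAL-2, split by the presence of the ETS motif in the promoter, with Wilson 95% intervals and the number of genes in each bar. Among other coding genes the bar without the motif is far lower (13.7% against 47.6% in OCI-Ly1), and among the ribosomal protein genes both bars lie at 50% or above.

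Genes with more annotated starts offer more places for a peak, and the members have more of them, with a median of 8 TSS (range 1 to 22) against 5 for other coding genes. Within genes of 4 to 9 TSS, 29 of 54 members (53.7%) and 19.8% of other coding genes were bound in OCI-Ly1, and 55.6% and 22.1% in VAL-2. Within genes of 10 or more TSS, the shares were 66.7% and 28.7%, and 62.5% and 31.3%. Within the 12 members with 1 to 3 TSS, 16.7% were bound in OCI-Ly1 and 41.7% in VAL-2, against 10.7% and 11.6%. With only the 5′ end of each gene as its start, 45 members (50%) and 15.9% of other coding genes were bound in OCI-Ly1, and 47 (52.2%) and 17.3% in VAL-2.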

How the data were processed

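FLI1 ChIP-Seq peak lists of 4 libraries were used, grouped by cell line and replicate from the labels. By the methods, the authors aligned reads to GRCh37 with bowtie2, kept uniquely mapped reads of sufficient quality with SAMtools and removed duplicates, and whether this holds for the deposited lists is not given in the sources used here. For peaks, HOMER with an FDR of 0.001 is named in the methods, but the deposited lists have 10 columns in the form MACS2 writes, with p-values up to 0.05. The caller, control and settings behind them are not given in the sources used here. The submitters' processing notes name hg19, BWA and CASAVA 1.4. The deposited fold enrichment is a ratio of the reads piled up at a summit to its local background. The deposited -log10 p and -log10 q values were made by the authors' peak caller, and its deposited score was not used. 

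A -log10 q of 3 or more made a peak pass. Peak centres were matched within 3 kb to the TSS of all transcripts of GENCODE release 44, and no peak reached past a chromosome end of GRCh37. The reads behind a peak were solved from fold = (reads + 1) / (background + 1) and a Poisson p-value. Shares carry Wilson 95% intervals, which cover counting error only, and no test was made because no conditions were compared. The members and gene lists were chosen with earlier results of these data known. Genes were named by a rule: all members bound in VAL-1, and of those bound in both cell lines the 10 of highest smallest passing value. The rule also took the 3 nearest to the threshold on each side, members nearer to another gene, and the small functional lists in full. The other lists were given by their highest members, and the unbound by name. RPL29, RPS6, RPL36, RPL26 and RPL32, and the members singled out for their motif sites or summit distance, were named after their values were seen. A few genes that the rule names are not reported here.

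Scripts were tested on simulated data. The alternatives covered the threshold, the fold, the TSS set and reach, an equal number of peaks per library, the motif and its windows, and each library left out. Software versions were pysam 0.24.0, scipy 1.17.1, python 3.11.15, pandas 2.3.3, numpy 2.4.6 and matplotlib 3.10.9.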

Additional observations from a re-analysis of the deposited data

How the results depend on the processing

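Of the results recomputed under the alternatives, 148 values stayed within the limits set for a change and 31 moved. The limits for counts were wide, as 22 small subunit genes in OCI-Ly1 against 15 with a -log10 q of at least 5 was not called a move. Some values could not move, since the top 973 peaks of VAL-1 are its passing peaks and its 8 members were all bound in VAL-2. Members and their subunits were tallied separately, so the 148 are not independent. The members' share stayed above that of other coding genes under all settings run, with a ratio of 2.01 to 3.29 in OCI-Ly1, 2.40 to 4.06 in VAL-1 and 2.04 to 3.54 in VAL-2. With a -log10 q of at least 2, 5 large subunit genes were bound in VAL-1, and 5887, 1020 and 6655 other coding genes in OCI-Ly1, VAL-1 and VAL-2. With at least 5, the members bound were 4 in VAL-1, 29 in VAL-2 and 21 in both cell lines, the large subunit genes 1 and 13, the small subunit genes 3 in VAL-1, and the other coding genes 2369, 356 and 2435. With the top 973 peaks of each library, 13 members were bound in OCI-Ly1, 14 in VAL-2 and 7 in both cell lines, with 7 and 7 large subunit, 6 and 7 small subunit, and 976 and 881 other coding genes. 

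Without VAL-2, 8 members were bound in both cell lines, and without VAL-1, 35. With each library left out, 47 to 62 members were bound in at least 1 library. Without OCI-Ly1 no count for both cell lines could be made. The excess of the ETS motif over the control windows, 42.6 percentage points in OCI-Ly1 and 32.7 in VAL-2, was 20.2 in the former with the core GGAA and 25.5 with 25 bp on each side, and in the latter 46.9 with 100 bp on each side and 53.1 with CGGAA. Searching the starts of all annotated transcripts, which covers more sequence, gave the ETS motif in 61.1%, YY1 in 28.9%, SP1 in 75.6% and TATA in 33.3% of the members, where all coding genes had 28.9%, 21.2%, 71.9% and 38.0%. Adding OCI-Ly1 replicate 1, with 1 passing interval of 243041133 bp, could hardly change a count and says nothing about stability. The shorter motif, the count without members nearer to another gene and the addition of OCI-Ly1 replicate 1 were chosen after seeing the data. No paired analysis was possible because the results come from no test and only VAL has 2 usable replicates. The fewest reads of a passing peak were 6 in OCI-Ly1 and VAL-2 and 8 in VAL-1, and the local background moved with the calls as well, since RPL26 did not pass in VAL-2 with 7 reads over 0.628 while RPL31 passed with 6 over 0.359.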

Other observations

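Ribosomal protein genes have many processed pseudogenes, copies of the mRNA without the promoter of the parent gene. Of 1598 pseudogenes named after a ribosomal protein gene, 23 had a peak that passed at their start, within 3 kb, in OCI-Ly1 (1.44%, Wilson 95% interval 0.961 to 2.15), 4 in VAL-1 (0.250%, 0.0974 to 0.642) and 32 in VAL-2 (2%, 1.42 to 2.81). Other pseudogenes had 2.16%, 0.487% and 2.47% of 13542. The median number of pseudogenes per member was 12 for the members bound in both cell lines, 6 for OCI-Ly1 only, 19 for VAL only and 8 for those bound in none, with wide and overlapping ranges (1 to 133 for both cell lines and 0 to 87 for none). The 3 readthrough genes were left out here, which leaves 14 members for VAL only and 26 for none. The methods describe the removal of reads that fit several places, whether this holds for these lists is not given in the sources used here, and its part in the members without a peak was not tested.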
